A study of Mus musculus with 9 samples.

Results

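The genes described here encode the secreted BMP, TGF-beta and activin ligands, their receptors, the Smad proteins that carry the signal to the nucleus, the Id genes that BMP signals induce, and the follistatins and latent binding proteins that hold ligands outside the cell. They are 45 genes, named by symbol, of 54532 in the deposited table. All 45 passed the filter on low values, a mean of at least 10 normalized counts over the 9 libraries, and the least abundant of them had a mean of 124. The cells came from knees of mouse embryos at stage E14.5, when joints form between the cartilages of the future bones. Every embryo carried 1 allele of each of a pair of reporters, Creb5 3XHA-P2A-tdTomato/+ and Sox9 iresEGFP/+, so no group is free of either allele. The Creb5 allele, of a bZIP transcription factor gene, gives red fluorescence (RFP), and the Sox9 allele, of the transcription factor gene that directs cartilage formation, gives green fluorescence (GFP). Dissociated cells were sorted into GFP-only, double-positive and RFP-only populations, with 3 bulk RNA-seq libraries each, 1 from each of litters 1, 2 and 5. The sources used here give neither the number of embryos behind a library nor the gates of the sort. Libraries are named by population and litter, as in GFP-only litter 5. A sorted population can hold several cell types, and fewer cells of a type and less RNA per cell cannot be told apart in bulk samples.

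In this signaling system a dimeric ligand joins type I and type II receptor kinases, and the type I receptor phosphorylates receptor Smads, which enter the nucleus with Smad4. BMPs act mainly through Smad1, Smad5 and Smad9, TGF-betas and activins mainly through Smad2 and Smad3, and Smad6 and Smad7 dampen both routes. In the embryonic limb BMP signals promote cartilage formation, while the site of the future joint is marked by the BMP-family ligand gene Gdf5 and needs the BMP antagonist encoded by Nog. TGF-beta reception through Tgfbr2 is needed for digit joints to form in mice.

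Values below are the authors' normalized counts, given in the order of litters 1, 2 and 5 or as mean ± SD (n = 3), and log2 fold changes on log2(normalized count + 1) carry their standard error. A difference was called at an adjusted p under 0.05, by limma with Benjamini-Hochberg adjustment over 17764 tested genes, and all adjusted p values are from that test. Recovered read totals lay between 25199258 and 47079305. The host genes of the reporters followed the labels, with Creb5 at 138 to 274 normalized counts in GFP-only cells and 2006 to 3531 in the other populations, and Sox9 at 1091 to 1891 in RFP-only cells and 16565 to 37991 in the others. Early cartilage markers summed to between 1267396 and 1740706 normalized counts in GFP-only libraries, 248229.9 and 694188 in double-positive and 5747 and 12537 in RFP-only ones. Markers of other cells also differed by population, with skeletal muscle markers at 4953 to 16979 in RFP-only against 563 to 1819.9 in the other libraries. Blood and immune markers summed to between 2803 and 18405 in double-positive, 1425 and 4605 in RFP-only and 208 and 669 in GFP-only libraries. The part of these other cells in the differences below was not tested. GFP-only litter 5 stood apart by transcript length. Relative to the other GFP-only libraries its median gene was 0.71 higher (log2) among the shortest of 3 length classes and lay at -0.40 among the longest, and 29 of the 45 genes had their lowest GFP-only value in it. For the 45 genes, called differences that lose their call or move by over 1.5 times without this library are given both ways. So are differences that gain a call without it. Among uncalled differences 24 in double-positive and 19 in RFP-only against GFP-only moved by over 1.5 times without it. Only some of these are given below, so a single value for an uncalled difference does not show that it was stable.

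Against GFP-only cells, 10 of the 45 genes were called in double-positive cells, 7 higher and 3 lower, where 8.29% of all tested genes were called (5.27% higher and 3.02% lower). In RFP-only against GFP-only cells 21 were called, 12 higher and 9 lower, beside 20.3% of all tested genes (11.8% higher and 8.48% lower). These comparisons share the GFP-only libraries. Between double-positive and RFP-only cells 4 were called, 3 higher and 1 lower in double-positive cells, where the background was 2.85% (1.8% higher and 1.05% lower). Without GFP-only litter 5 the counts were 11, 20 and 7, and without double-positive litter 2 the count against GFP-only cells was 6. The count for RFP-only against GFP-only cells was 11 without RFP-only litter 1 and 12 without that of litter 5. The 2 populations' libraries did not overlap for 14, 22 and 13 of the 45 genes in these comparisons, where 28.1%, 39.4% and 23.8% of all tested genes did not overlap. The median log2 fold changes of the 45 genes were 0.24, 0.38 and 0.03, beside 0.04, 0.05 and -0.01 over all tested genes. By the F-test across the 3 populations 16 of 45 (35.6%) differed, beside 17.2% of tested genes. None was called both against GFP-only and against RFP-only cells in the same direction in double-positive cells, a pattern held by 0.236% of tested genes upwards and 0.0619% downwards. In all, 22 genes were called in some comparison and 23 in none.

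**Figure D1:**
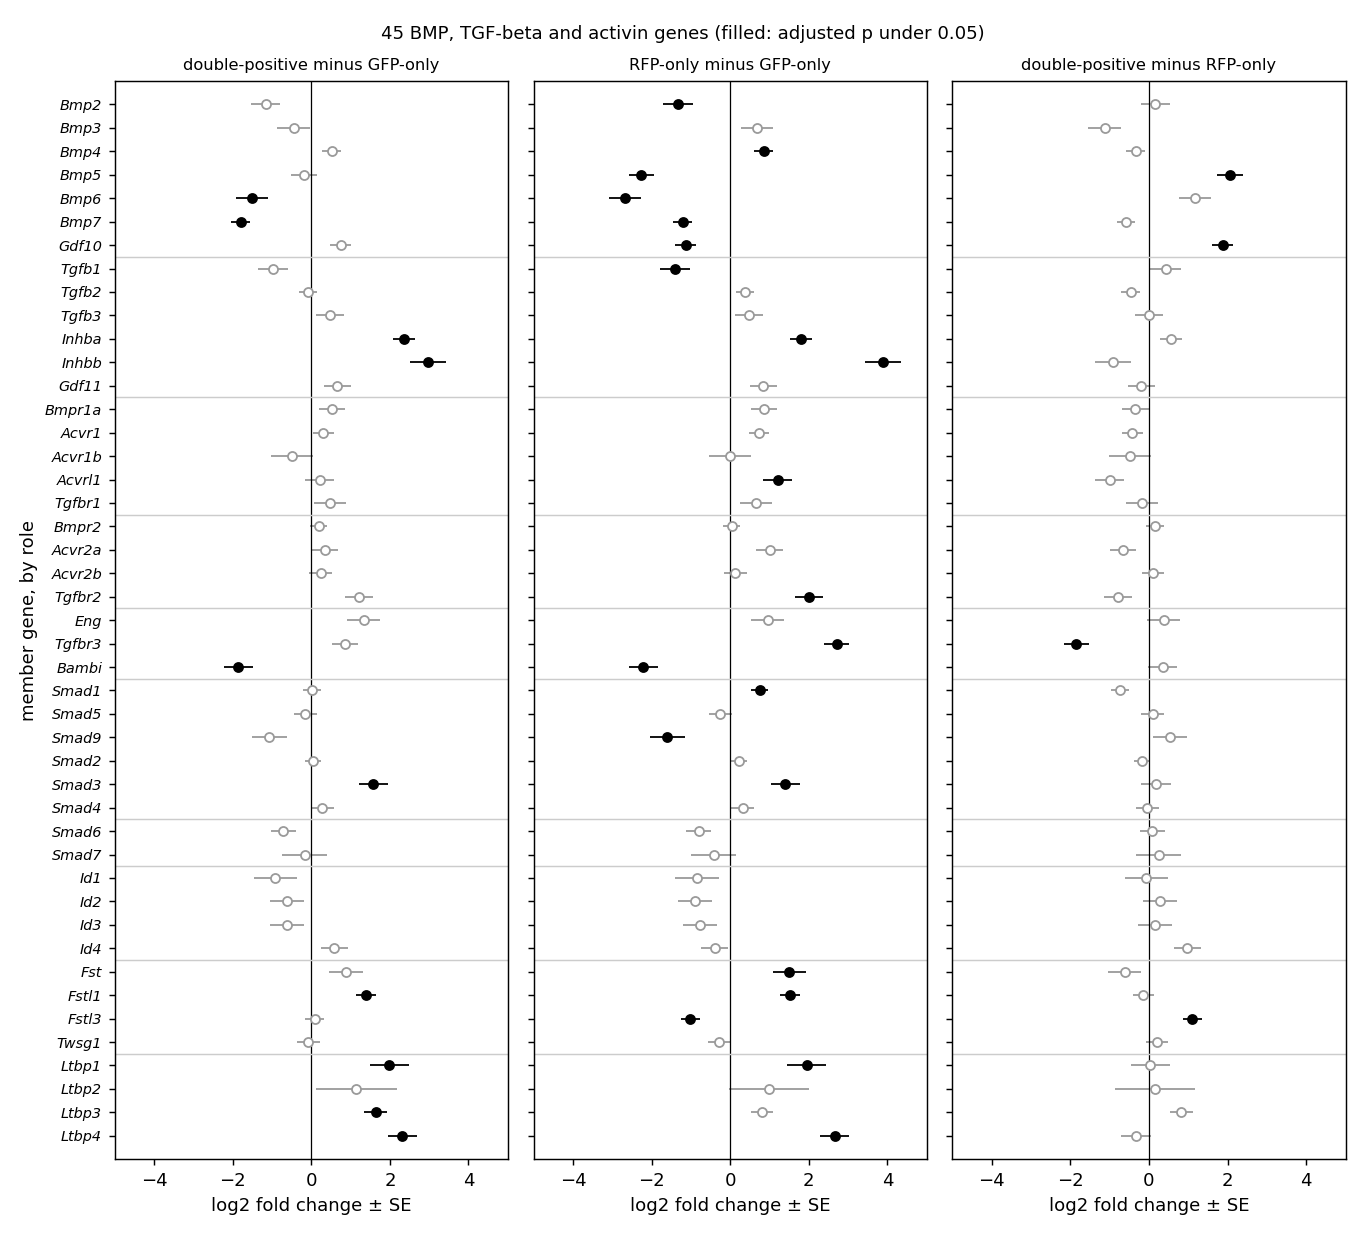
Log2 fold changes (x axis, with SE bars, n = 3 libraries per population) of the 45 genes (y axis, ordered by role) in the 3 comparisons. Filled points passed an adjusted p under 0.05, which 10, 21 and 4 genes did from left to right. Inhbb lies farthest right in the middle panel at 3.88 and Bmp6 farthest left at -2.67.

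Of the 7 genes for BMP-branch ligands, 5 were lower and 1 was higher in RFP-only than GFP-only cells, and 2 were lower in double-positive than GFP-only cells. Of all tested genes 8.48% were called lower and 11.8% higher in RFP-only cells, and 3.02% lower in double-positive cells. Bmp7, a ligand gene also known for its part in kidney development, had 4966, 4169 and 3109.7 normalized counts in GFP-only libraries, 1116, 991 and 1377 in double-positive and 1881, 1537 and 1802 in RFP-only ones. Every GFP-only library lay above every library of the other populations. Against GFP-only cells Bmp7 lay at a log2 fold change of -1.80 ± 0.23 in double-positive (adjusted p = 0.00158) and -1.21 ± 0.23 in RFP-only cells (adjusted p = 0.00424).

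Bmp6, which maturing chondrocytes are known to express, had 1490.4, 2802 and 1321 normalized counts in GFP-only libraries, 433, 534 and 1045 in double-positive and 197, 288 and 371 in RFP-only ones. The 3 populations stepped down without overlap in that order. Bmp6 was lower than GFP-only cells by a log2 fold change of -2.67 ± 0.40 in RFP-only (adjusted p = 0.000962) and -1.50 ± 0.40 in double-positive cells (adjusted p = 0.0431). The call in double-positive cells was lost on leaving out any 1 of 7 libraries, all but the GFP-only and double-positive libraries of litter 5, with adjusted p up to 0.151. Prehypertrophic markers, which mark maturing cartilage, summed to between 92968 and 163380.5 in GFP-only, 5284 and 13265 in double-positive and 6191 and 8808 in RFP-only libraries. Bmp6 shares 224 exon bases on the opposite strand with Txndc5, an abundant gene at 40381 ± 8470 in GFP-only cells against 25914 ± 1846 in RFP-only cells. Between these Txndc5 had a log2 fold change of -0.62 ± 0.20 (adjusted p = 0.0517), and the sources used here do not say whether reads were counted by strand.

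Bmp5 and Gdf10 separated RFP-only cells from both populations with the Sox9 reporter. Bmp5, whose loss in mice gives short ears through reduced cartilage, had 2977, 2833 and 2156 normalized counts in GFP-only libraries, 2534, 1467 and 3281 in double-positive and 759, 412 and 532 in RFP-only ones. All RFP-only libraries were below the others, while GFP-only and double-positive libraries overlapped. Its log2 fold change was -2.26 ± 0.33 in RFP-only against GFP-only (adjusted p = 0.000753) and 2.06 ± 0.33 in double-positive against RFP-only cells (adjusted p = 0.00626). An opposite-strand gene, Gm26903, shares 46.7% of the exon bases of Bmp5 but had a mean of only 25.6 normalized counts.

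Gdf10, also known as BMP3B, had 11537, 7421 and 5989 normalized counts in GFP-only libraries, 13064, 10973 and 17009.9 in double-positive and 3144, 4086 and 3801 in RFP-only ones. It was the most abundant of the 13 ligand genes per kilobase of exon in double-positive cells, at 2626 ± 588 normalized counts per kilobase. Gdf10 had a log2 fold change of 1.88 ± 0.27 in double-positive against RFP-only (adjusted p = 0.00327) and -1.13 ± 0.27 in RFP-only against GFP-only (adjusted p = 0.0118, and 0.0575 without RFP-only litter 1). Its difference of 0.75 ± 0.27 between double-positive and GFP-only cells did not pass (adjusted p = 0.108), but passed without GFP-only litter 1 (1.01, adjusted p = 0.0336).

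Bmp2 and Bmp4 encode closely related ligands and lay on opposite sides. Bmp2 had 5214, 3538 and 2735 normalized counts in GFP-only libraries, 1747, 901 and 2868 in double-positive and 1588, 1426 and 1415 in RFP-only ones. In RFP-only cells it was lower without overlap (-1.33 ± 0.38, adjusted p = 0.0293, and 0.053 to 0.0902 on leaving out any RFP-only library or GFP-only litter 1 or 2). In double-positive cells the libraries of litters 1 and 2 lay below all GFP-only libraries and that of litter 5 did not (-1.16 ± 0.38, adjusted p = 0.0827, and 0.0295 without that library). Bmp4 had 754, 711 and 1089 in GFP-only, 1336, 1172 and 1098 in double-positive and 1325, 1822 and 1427 in RFP-only libraries. Bmp4 was higher in RFP-only than GFP-only cells (0.85 ± 0.24, adjusted p = 0.0296), a call lost on leaving out any of the same 5 libraries (adjusted p 0.0591 to 0.114). Bmp3, which encodes a ligand that opposes bone-forming BMPs, ranged from 333 to 1248 over the 9 libraries and was called in no comparison.

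**Figure D2:**
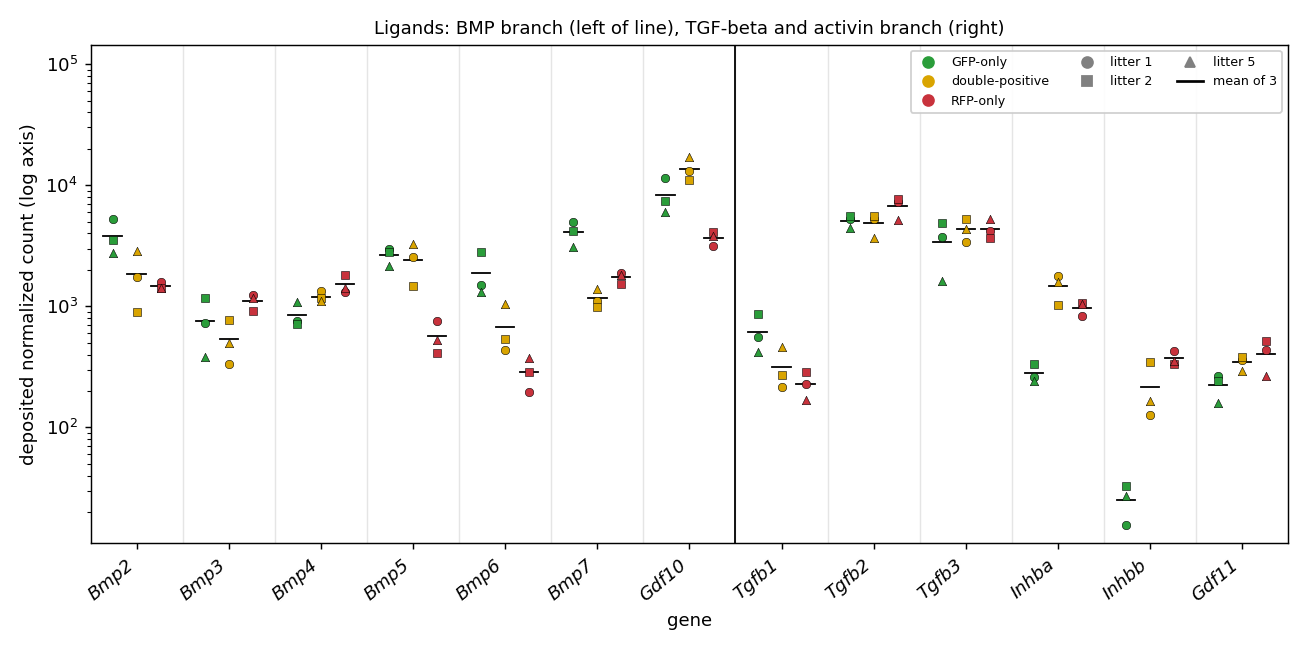
Deposited normalized counts (y axis, log scale) of the 13 ligand genes (x axis) in each of the 9 libraries, coloured by population and shaped by litter, with a bar at each mean of 3. Bmp6, Bmp7 and Bmp2 sit highest in GFP-only cells, Inhba and Inhbb sit lowest there, and Bmp5 and Gdf10 sit lowest in RFP-only cells.

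The activin subunit genes ran the other way. Inhba, which encodes the subunit of activin A, had 261, 334 and 242 normalized counts in GFP-only libraries, 1774, 1021 and 1596 in double-positive and 832, 1059 and 1037 in RFP-only ones. The GFP-only libraries were all below the rest, and the other populations overlapped. The log2 fold change over GFP-only cells was 2.36 ± 0.27 in double-positive (adjusted p = 0.00088) and 1.81 ± 0.27 in RFP-only cells (adjusted p = 0.00102), a fold of 5.14 and 3.5. Inhbb, which encodes the subunit of activin B, had 15.7, 33.1 and 27.1 in GFP-only, 128, 350.0 and 167 in double-positive and 427, 336 and 354 in RFP-only libraries. Again no GFP-only library reached the others. For Inhbb the log2 fold change was 2.96 ± 0.46 in double-positive (adjusted p = 0.00354) and 3.88 ± 0.46 in RFP-only cells (adjusted p = 0.000217). These 4 calls held under all 19 alternative settings.

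The promoter windows of these genes are shown because Creb5 belongs to the bZIP family, whose members bind the cyclic AMP response element TGACGTCA or related sites, and because both were higher in each population with the Creb5 reporter. Each window is RefSeq sequence of GRCm38.p6, from 250 bases before to 50 bases after the annotated start, 5′ to 3′ on the strand of the gene. Capitals would mark a match on either strand to TGACGTCA, to its core TGACG, to the AP-1 site TGANTCA or to the GC-rich Smad element GGCGCC. The Inhba window is chr13:16011601-16011900 (plus strand) and the Inhbb window chr1:119422199-119422498 (minus strand).
Inhba: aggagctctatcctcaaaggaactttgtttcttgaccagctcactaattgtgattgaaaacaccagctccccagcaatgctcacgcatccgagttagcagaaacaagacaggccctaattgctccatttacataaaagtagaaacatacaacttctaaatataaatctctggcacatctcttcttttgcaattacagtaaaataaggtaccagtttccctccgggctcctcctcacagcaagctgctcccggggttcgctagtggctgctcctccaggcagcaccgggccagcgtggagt
Inhbb: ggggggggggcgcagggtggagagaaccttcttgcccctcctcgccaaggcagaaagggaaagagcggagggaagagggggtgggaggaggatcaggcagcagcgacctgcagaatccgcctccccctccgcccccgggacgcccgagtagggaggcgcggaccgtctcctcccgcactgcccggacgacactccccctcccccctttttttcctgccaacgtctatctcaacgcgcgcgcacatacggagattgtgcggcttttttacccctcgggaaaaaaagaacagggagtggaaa
Neither window holds a capital, so these letters are not in it. Inhba has 1 and Inhbb 2 matches to the Smad box GTCT, which 88.0% of all 32851 promoter windows hold.

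Of the other TGF-beta branch ligand genes only Tgfb1 was called. Tgfb1 had 562, 870.5 and 421 normalized counts in GFP-only libraries, 216, 272 and 461 in double-positive and 230.0, 289 and 169 in RFP-only ones. Tgfb1 was lower in RFP-only than GFP-only cells (-1.39 ± 0.39, adjusted p = 0.0259, and 0.0737 to 0.104 without GFP-only litter 2 or RFP-only litter 1 or 5). Tgfb2 and Tgfb3, the more abundant TGF-beta genes here, were called in no comparison. Tgfb2 ranged from 3679 to 7704 and Tgfb3 from 1620.0 to 5292, and the lowest Tgfb3 value was GFP-only litter 5. Gdf11, which encodes a ligand of activin receptors, ranged from 159 to 513 and was not called.

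Of the 5 type I receptor genes only Acvrl1 was called, in RFP-only against GFP-only cells. That is 20%, beside 20.3% of all tested genes. Acvrl1, a type I receptor best known from endothelium, had 209, 148 and 189.9 normalized counts in GFP-only libraries, 134, 281 and 243 in double-positive and 318, 567 and 406 in RFP-only ones. It was higher in RFP-only than GFP-only cells (1.21 ± 0.37, adjusted p = 0.0406), without overlap. That call did not hold in 10 of 19 alternatives, among them a correction for transcript length (adjusted p = 0.0614). Leaving out any 1 of 7 libraries, all but the double-positive ones of litters 1 and 2, also ended it (adjusted p 0.0521 to 0.145). Without GFP-only litter 5 the log2 fold change of Acvrl1 was 1.24 (adjusted p = 0.0523). Endothelial markers summed to between 1279.6 and 2488 in GFP-only, 1682 and 6779.5 in double-positive and 6059 and 7270.2 in RFP-only libraries. Of 12 such markers 7 were called higher in RFP-only than GFP-only cells, beside 11.8% of all tested genes. All 12 had reads in every population, and their part in the Acvrl1 difference was not tested. Bmpr1a, a type I BMP receptor of cartilage, ranged from 2213 to 8552, Acvr1 from 659 to 1746, Acvr1b from 60.3 to 262 and Tgfbr1 from 979.6 to 3986, with no call. In RFP-only against GFP-only, Bmpr1a lay at 0.87 ± 0.34 (adjusted p = 0.0927), at 1.20 without GFP-only litter 1 (adjusted p = 0.0228) and at 0.49 without GFP-only litter 5 (adjusted p = 0.223). Acvr1 lay at 0.73 ± 0.27 (adjusted p = 0.0741), at 0.94 without GFP-only litter 2 (adjusted p = 0.0378) and at 0.48 without GFP-only litter 5 (adjusted p = 0.126). For Bmpr1a, Acvr1 and Tgfbr1 the lowest of 9 values was GFP-only litter 5.

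Of the 4 type II receptor genes only the TGF-beta receptor gene Tgfbr2 was called, in RFP-only against GFP-only cells (25%, beside 20.3% of all tested genes). It had 1729, 1872 and 658 normalized counts in GFP-only libraries, 2532, 3041 and 3427 in double-positive and 4629, 4666 and 6394 in RFP-only ones. The populations stepped up without overlap in that order. The log2 fold change was 2.01 ± 0.36 in RFP-only against GFP-only (adjusted p = 0.00264) and 1.52 without GFP-only litter 5. In double-positive against GFP-only cells the 1.21 ± 0.36 did not pass (adjusted p = 0.0608). Without that library it was 0.73 and passed (adjusted p = 0.0463), as it did without either other GFP-only library (1.42 and 1.48, adjusted p = 0.049 and 0.0377). Double-positive cells lay below RFP-only cells by -0.80 ± 0.36, adjusted p = 0.361, which passed without GFP-only litter 5 (adjusted p = 0.0276) and in a fit of those populations alone (0.0418). The type II receptor genes for BMPs and activins were called nowhere, with Bmpr2 at 899.5 to 1457, Acvr2a at 459.9 to 1652 and Acvr2b at 385 to 719.6. With litter as a block Acvr2a was called higher in RFP-only than GFP-only cells (1.00 ± 0.34, adjusted p = 0.0608 without and 0.0465 with the block), and likewise without GFP-only litter 1 (adjusted p = 0.0229).

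Tgfbr3 encodes betaglycan, a co-receptor that presents TGF-beta2 and binds inhibin. It had 436, 506 and 376 normalized counts in GFP-only libraries, 501, 1289 and 773 in double-positive and 2649, 2497 and 3525 in RFP-only ones. All RFP-only libraries lay above all others. Tgfbr3 was higher by a log2 fold change of 2.71 ± 0.33 than in GFP-only cells (adjusted p = 0.000253), a fold of 6.54. Double-positive cells were lower than RFP-only cells by a log2 fold change of -1.85 ± 0.33 (adjusted p = 0.0125), which was 0.0568 without the double-positive and 0.0713 without RFP-only litter 5. Eng, which encodes the endothelial co-receptor endoglin, had 212, 384 and 130.2 in GFP-only, 407, 698 and 599 in double-positive and 311, 618 and 403 in RFP-only libraries. Its 1.33 ± 0.42 in double-positive against GFP-only cells did not pass (adjusted p = 0.0779) and passed with litter as a block (adjusted p = 0.0398) or without GFP-only litter 2 (1.73, adjusted p = 0.0289). In RFP-only against GFP-only it lay at 0.95 ± 0.42 (adjusted p = 0.137), at 1.35 without that library (adjusted p = 0.0404) and at 0.58 without GFP-only litter 5 (adjusted p = 0.34).

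Bambi encodes a pseudoreceptor that lacks the kinase domain and blocks signaling. It had 9318, 8163 and 18586 normalized counts in GFP-only libraries, 3018, 2014 and 4915 in double-positive and 2584, 1917 and 2883 in RFP-only ones. GFP-only cells were highest without overlap, and among them the library of litter 5 was the highest. The log2 fold change was -1.85 ± 0.37 in double-positive (adjusted p = 0.012, and 0.0558 without double-positive litter 2) and -2.21 ± 0.37 in RFP-only cells (adjusted p = 0.0018). Without GFP-only litter 5 the values were -1.49 and -1.85 (adjusted p = 0.0221 and 0.00377).

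Of the 6 genes for receptor Smads and Smad4, 2 were higher, 1 from each branch, and 1 was lower in RFP-only than GFP-only cells. Of all tested genes 11.8% were called higher and 8.48% lower there. In double-positive against GFP-only cells 1 of the 6 was higher, beside 5.27% of all tested genes. Smad3, which carries TGF-beta and activin signals, had 1034, 1246 and 381 normalized counts in GFP-only libraries, 2577, 2255 and 2279 in double-positive and 2384, 1787 and 2138 in RFP-only ones. The GFP-only libraries were lowest without overlap. Its log2 fold change was 1.58 ± 0.37 in double-positive (adjusted p = 0.0257) and 1.40 ± 0.37 in RFP-only cells (adjusted p = 0.0219). Without GFP-only litter 5 these were 1.06 and 0.88 (adjusted p = 0.00758 and 0.00739). Leaving out any 1 of the double-positive libraries ended the double-positive call (adjusted p 0.0659 to 0.0857), and leaving out RFP-only litter 1 or 5 ended the other (0.0833 and 0.0709).

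Smad1, which carries BMP signals, had 3665, 2679 and 2389 normalized counts in GFP-only libraries, 2758, 3221 and 2731 in double-positive and 4889.6, 4099 and 5593 in RFP-only ones. Smad1 was higher in RFP-only than GFP-only cells (0.75 ± 0.22, adjusted p = 0.0331), and 0.49 with a correction for transcript length (adjusted p = 0.0738). Leaving out GFP-only litter 2, double-positive litter 1 or RFP-only litter 1 or 5 also ended this call (adjusted p 0.0512 to 0.136). Below RFP-only cells, double-positive cells lay at -0.74 ± 0.22, adjusted p = 0.118, which passed without GFP-only litter 5 (adjusted p = 0.0351), in a fit of those populations alone (0.0335) and by DESeq2 (0.0318). Smad9, the least abundant receptor Smad, had 365, 263 and 657 in GFP-only, 168, 140.3 and 290.1 in double-positive and 96.7, 126 and 185 in RFP-only libraries. Smad9 was lower in RFP-only than GFP-only cells (-1.60 ± 0.44, adjusted p = 0.0249). Without GFP-only litter 5 it was -1.24 (adjusted p = 0.0648), and the call was also lost without RFP-only litter 1 or 2 (0.102 and 0.0695). Smad5, at 1679 to 3468, Smad2, at 2396 to 3734, and the common partner Smad4, at 2727 to 6522, were called nowhere.

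**Figure D3:**
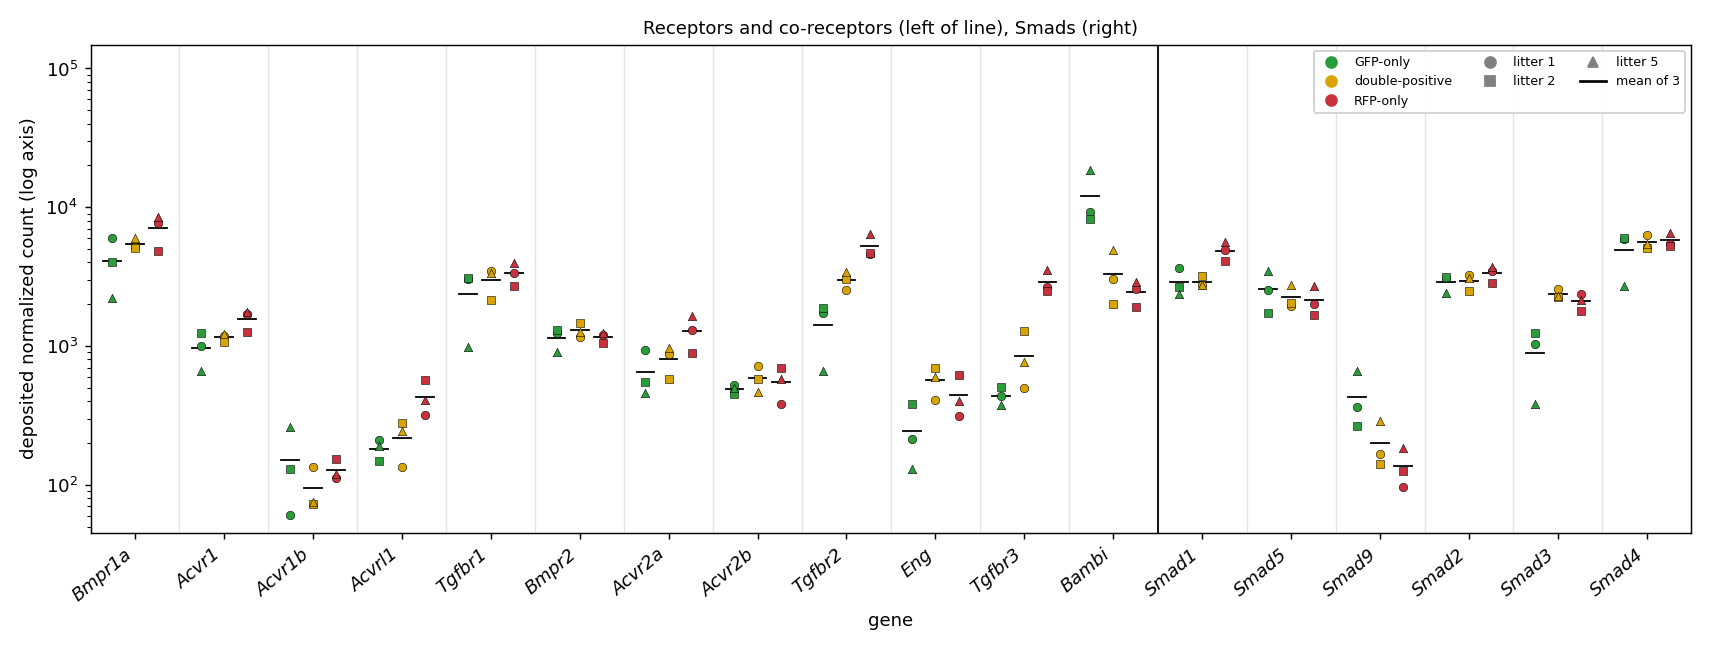
Deposited normalized counts (y axis, log scale) of receptor, co-receptor and Smad genes (x axis) in the 9 libraries, coloured by population and shaped by litter, with a bar at each mean of 3. Tgfbr2 and Tgfbr3 rise from GFP-only to RFP-only cells, Bambi is highest in GFP-only cells, and Smad2, Smad4, Smad5 and Bmpr2 overlap between populations.

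The Id genes and inhibitory Smads, which BMP signals induce in many cells, were called in no comparison. Of all tested genes 8.29% were called in double-positive and 20.3% in RFP-only against GFP-only cells. Between double-positive and RFP-only cells 2.85% were called. Id1 had 9698, 3112 and 21409.8 normalized counts in GFP-only libraries, 5117, 3140.3 and 5974 in double-positive and 6127, 3593 and 5043 in RFP-only ones. Id3 had 37732, 18171 and 78559.6 in GFP-only, 27617, 17895 and 30067 in double-positive and 25508, 17648 and 23837 in RFP-only libraries. In litter 2 the populations had nearly level Id1 and Id3 values, while in litters 1 and 5 GFP-only cells were highest. Id2 had 27915, 11261 and 41531 in GFP-only, 19411, 10436 and 17979 in double-positive and 17484, 9110.4 and 12926 in RFP-only libraries. GFP-only cells were highest in each litter. Its log2 fold change of -0.89 ± 0.44 in RFP-only against GFP-only cells did not pass (adjusted p = 0.175) and passed with litter as a block (adjusted p = 0.0452). Without GFP-only litter 2 the RFP-only differences of Id1, Id2 and Id3 were -1.58, -1.42 and -1.30 and passed (adjusted p = 0.0178, 0.0182 and 0.0253), as did Id1 in double-positive cells (-1.65, adjusted p = 0.0292). Without GFP-only litter 5 they were -0.19, -0.48 and -0.25 (adjusted p = 0.814, 0.466 and 0.647), and that of Id1 in double-positive cells was -0.26 (adjusted p = 0.783). With all libraries Id1 and Id3 lay at -0.85 ± 0.55 and -0.78 ± 0.43 in RFP-only cells (adjusted p = 0.302 and 0.228). These are short transcripts, and their highest values were in GFP-only litter 5, which was high for short transcripts in general. The part of that library's length pattern in these values was not tested.

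Id4 had 3815, 1813 and 3718 normalized counts in GFP-only libraries, 5159, 2939.9 and 5735 in double-positive and 2907, 1862 and 2121 in RFP-only ones. Each double-positive library was above every RFP-only library, but the 0.97 ± 0.34 did not pass (adjusted p = 0.196). Smad6, at 948 to 3158, and Smad7, at 483 to 2596, were highest in GFP-only litter 1. Smad6 passed in RFP-only against GFP-only cells without GFP-only litter 2 (-1.11, adjusted p = 0.0252, against 0.0969 with it). In all 3 populations the library of litter 2 was lowest for 7 of the 45 genes (15.6%), namely all 4 Id genes, Smad6, Smad7 and Bambi, where 5.26% of tested genes had that pattern. The litters were collected on separate dates, so litter and collection cannot be told apart. A limma F-test of litter beside population called none of the 45 genes (lowest adjusted p = 0.411, for Bambi), and 11 had an unadjusted p under 0.05. Over all tested genes that test called 0.00563% by adjusted p and 7.74% by unadjusted p.

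**Figure D4:**
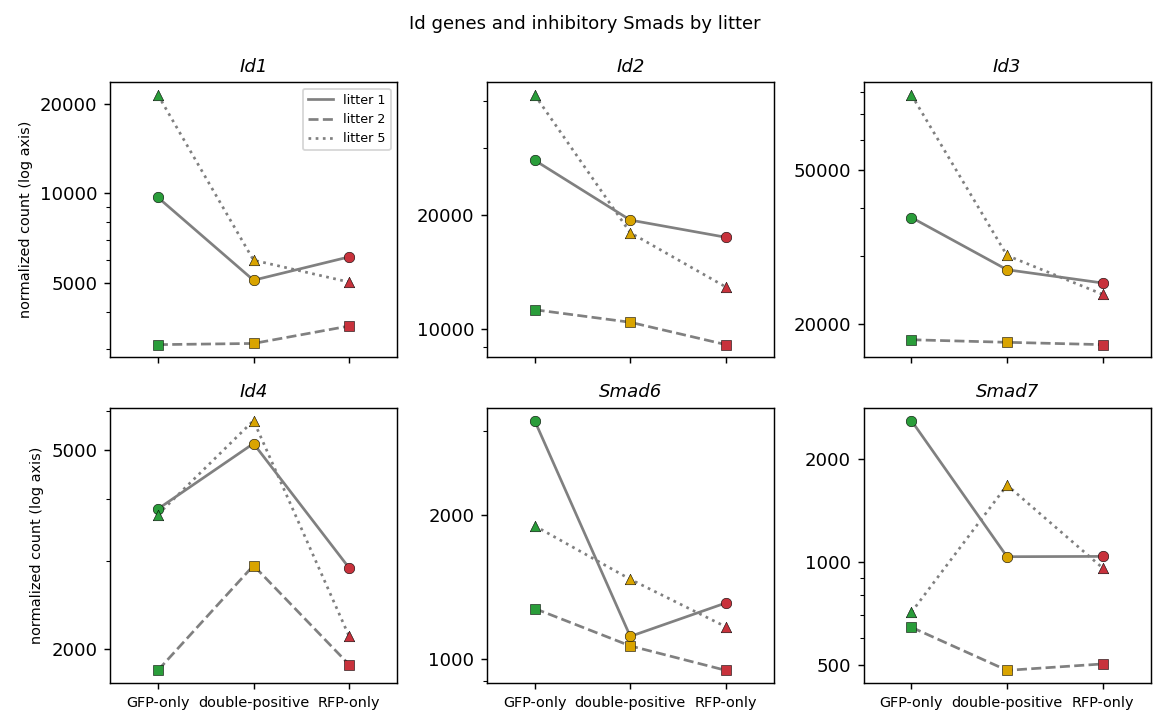
Normalized counts (y axis, log scale) of the Id genes, Smad6 and Smad7 in the 3 populations (x axis), with 1 line for each litter that joins its 3 libraries as a guide to the eye. Litter 2 (dashed) is lowest in every population, and for Id1 and Id3 it is nearly level while litter 5 starts from 21409.8 and 78559.6 in GFP-only cells.

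The follistatin genes differed among themselves. Fstl1, which encodes a secreted glycoprotein of mesenchyme, had 16263, 21119.8 and 10183 normalized counts in GFP-only libraries, 35892, 44752 and 39356 in double-positive and 41266, 41387 and 49507 in RFP-only ones. GFP-only libraries were lowest without overlap, and the other populations overlapped. The log2 fold change was 1.39 ± 0.26 in double-positive (adjusted p = 0.00867) and 1.53 ± 0.26 in RFP-only cells (adjusted p = 0.00188), both called under all 19 alternatives. Fst, the activin-binding follistatin gene, had 552, 1360.2 and 1421 in GFP-only, 1209, 3224 and 1723 in double-positive and 2287, 2884 and 3678 in RFP-only libraries. It was higher in RFP-only than GFP-only cells (1.50 ± 0.42, adjusted p = 0.0278), a call lost with a correction for transcript length (adjusted p = 0.0601) or without GFP-only litter 1 or RFP-only litter 2 or 5 (0.0707 to 0.107).

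Fstl3, which also encodes an activin-binding protein, was lower in RFP-only cells, with 675, 640.3 and 836 normalized counts in GFP-only libraries, 766, 631 and 898 in double-positive and 357, 364 and 337 in RFP-only ones. The RFP-only libraries lay closely together and below all others. The log2 fold change was -1.01 ± 0.25 in RFP-only against GFP-only (adjusted p = 0.014, and 0.0505 and 0.054 without RFP-only litter 1 or 5). In double-positive against RFP-only cells it was 1.10 ± 0.25 (adjusted p = 0.0379), which was lost on leaving out any RFP-only library, double-positive litter 1 or 5 or GFP-only litter 1 (0.0518 to 0.157). An opposite-strand gene, Prss57, shares 47.3% of the exon bases of Fstl3 and had a mean of 11.5 normalized counts. Twsg1, which encodes a BMP-binding partner of chordin, ranged from 6736 to 13879 and was not called. Its lowest value was GFP-only litter 5, without which it passed in RFP-only against GFP-only (-0.62, adjusted p = 0.0388).

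The latent TGF-beta binding protein genes, whose products tether inactive TGF-beta to the matrix or, for LTBP2, bind fibrillin without TGF-beta, were called only upwards from GFP-only cells. Of 4, 3 were higher in double-positive and 2 in RFP-only than GFP-only cells, where 5.27% and 11.8% of all tested genes were called higher. All 4 had their lowest GFP-only value in litter 5, the library that was low for long transcripts. Ltbp4 had 742, 1221 and 414 normalized counts in GFP-only libraries, 2824, 4466 and 3707 in double-positive and 3151, 5112 and 5865 in RFP-only ones. No GFP-only library reached the others. For Ltbp4 the log2 fold change was 2.32 ± 0.38 in double-positive (adjusted p = 0.00447) and 2.66 ± 0.38 in RFP-only cells (adjusted p = 0.000675), a fold of 4.99 and 6.31. Both calls held under all 19 alternatives.

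Ltbp3 had 2483, 3435 and 1476 normalized counts in GFP-only libraries, 6641, 8075 and 7066 in double-positive and 3382, 4479 and 4519 in RFP-only ones. Double-positive libraries were above all others. Against GFP-only cells its log2 fold change was 1.64 ± 0.29 (adjusted p = 0.00653). Against RFP-only cells the 0.82 ± 0.29 did not pass (adjusted p = 0.188). It passed without GFP-only litter 5 (adjusted p = 0.0244), in a fit of those populations alone (0.0239) and with a correction for transcript length (0.94, adjusted p = 0.0435), and then Ltbp3 passed against both other populations. RFP-only cells were above GFP-only cells by 0.81 ± 0.29 (adjusted p = 0.0666). That was 1.09 without GFP-only litter 2 (adjusted p = 0.0182) and 0.49 without GFP-only litter 5 (adjusted p = 0.11).

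Ltbp1 had 2811, 3957 and 678 normalized counts in GFP-only libraries, 7418, 8874 and 7100.1 in double-positive and 7457, 6942 and 8442 in RFP-only ones. The GFP-only libraries were lowest without overlap, and that of litter 5 lay far below the others. For Ltbp1 the log2 fold change was 1.98 ± 0.50 in double-positive (adjusted p = 0.0336) and 1.95 ± 0.50 in RFP-only cells (adjusted p = 0.0182). Without GFP-only litter 5 these were 1.22 and 1.19 (adjusted p = 0.00443 and 0.00179). The double-positive call was lost on leaving out any double-positive or RFP-only library (adjusted p 0.0523 to 0.119), and the RFP-only call without RFP-only litter 1 or 5 (0.0543 and 0.0656). Ltbp2 ranged from 55.6 to 951 with no call.

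The promoter windows of the 3 called LTBP genes are printed in the same format, since all were higher in double-positive cells, and Ltbp1 and Ltbp4 also in RFP-only cells. They are chr17:75005279-75005578 (plus strand) for the upstream start of Ltbp1, chr19:5740650-5740949 (plus strand) for Ltbp3 and chr7:27337563-27337862 (minus strand) for the upstream start of Ltbp4.
Ltbp1: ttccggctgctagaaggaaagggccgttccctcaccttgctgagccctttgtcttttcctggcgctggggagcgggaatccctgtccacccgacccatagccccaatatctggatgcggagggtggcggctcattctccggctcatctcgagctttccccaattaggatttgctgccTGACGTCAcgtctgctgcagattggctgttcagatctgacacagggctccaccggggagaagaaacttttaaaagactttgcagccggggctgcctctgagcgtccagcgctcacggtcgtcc
Ltbp3: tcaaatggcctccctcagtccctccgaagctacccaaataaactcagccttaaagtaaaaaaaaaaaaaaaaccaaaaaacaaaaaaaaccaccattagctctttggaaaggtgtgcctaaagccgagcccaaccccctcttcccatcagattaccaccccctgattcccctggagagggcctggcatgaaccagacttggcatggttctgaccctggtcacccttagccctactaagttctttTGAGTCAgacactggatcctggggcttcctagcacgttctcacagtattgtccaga
Ltbp4: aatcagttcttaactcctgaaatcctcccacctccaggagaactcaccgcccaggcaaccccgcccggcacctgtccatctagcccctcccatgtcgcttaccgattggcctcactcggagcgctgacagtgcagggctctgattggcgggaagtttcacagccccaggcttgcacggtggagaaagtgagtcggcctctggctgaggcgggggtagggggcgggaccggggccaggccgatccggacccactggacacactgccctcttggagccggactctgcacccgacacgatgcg
The capitals in Ltbp1 are TGACGTCA, from -73 to -66 relative to the start, a palindrome that holds the core TGACG on both strands. This element is in 1.79% of all windows and in 1 of the 39 windows of the 33 genes of the set that have one. The capitals in Ltbp3 are an AP-1 match, from -6 to 1, a motif in 7.81% of all windows and 1 of the 39. The Ltbp4 window printed holds none of these motifs, while a pair of overlapping windows at starts farther downstream hold GGCGCC, from -184 to -179 and from -169 to -164. The other Ltbp1 window, also downstream, holds none. The core TGACG was in 8 of 39 windows (20.5%), beside 20.8% of all windows, and GGCGCC in 12 of 39 (30.8%), from 10 genes, beside 11.9%. A match to letters is not a bound site.

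**Figure D5:**
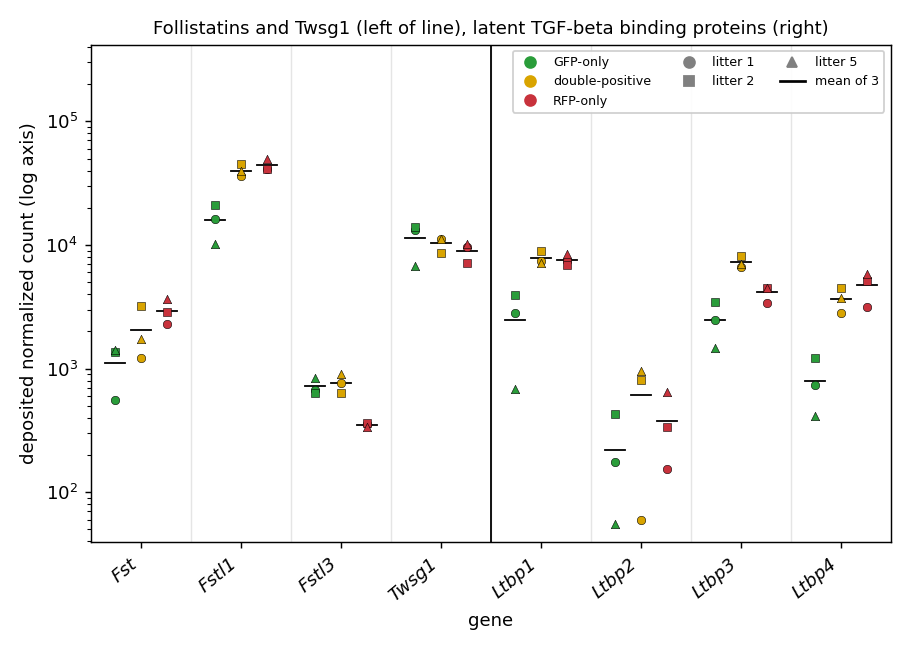
Deposited normalized counts (y axis, log scale) of follistatin, Twsg1 and LTBP genes (x axis) in the 9 libraries, coloured by population and shaped by litter, with a bar at each mean of 3. Fstl1, Ltbp1 and Ltbp4 are lowest in GFP-only cells, Fstl3 is lowest in RFP-only cells and Ltbp3 is highest in double-positive cells.

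Levels between genes were compared per kilobase of union exon length, as normalized counts per kilobase (mean ± SD, n = 3). Id3 was the most abundant of the 45 in every population, at 25026 ± 17204 in GFP-only, 14066 ± 3594 in double-positive and 12469 ± 2312 in RFP-only cells. In GFP-only cells Id2 (11035 ± 6218) and Id1 (9833 ± 7989) followed, and their order lies within the spread. In the other populations Fstl1 ranked next to Id3, at 8140 ± 909 in double-positive and 8965 ± 961 in RFP-only cells. Of the BMP-branch ligands in GFP-only cells Gdf10 was at 1596 ± 553, Bmp2 at 1077 ± 356 and Bmp7 at 1016 ± 232, levels that overlap within their spread. In RFP-only cells Gdf10 (706 ± 92.7) and Bmp4 (678 ± 117) led and could not be ordered. The summed level of the 7 BMP-branch ligands was 5310.1 in GFP-only, 4814 in double-positive and 2597 in RFP-only cells. Of these sums Gdf10 alone held 1596, 2626 and 706. The 6 TGF-beta and activin branch ligands summed to 2117, 2555 and 2832. Their largest parts were Tgfb2 (882, 837 and 1157) and Tgfb3 (1009, 1291 and 1289), which were called in no comparison. The sums are given without a spread and were not tested. Inhbb was the least abundant of the 45 in GFP-only cells at 5.95 ± 2.07.

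The other genes of the pathway were taken from lists of 70 genes that are not among the 45, of which 66 were tested. In double-positive against GFP-only cells 13 were higher and 3 lower, with RFP-only against GFP-only 18 and 7, and in double-positive against RFP-only cells 4 and 1. In that order 24.2%, 37.9% and 7.58% of the 66 were called, beside 8.29%, 20.3% and 2.85% of all tested genes. Of 15 tested genes for BMP antagonists and binding proteins, 5 were higher and 2 lower in double-positive, and 7 higher and 4 lower in RFP-only than GFP-only cells. These calls made up 46.7% and 73.3% of the 15, beside the same shares of all tested genes. Nog, which encodes the antagonist noggin, had 6371, 3514 and 3327 normalized counts in GFP-only libraries, 1875, 623 and 1733 in double-positive and 559, 353 and 540.4 in RFP-only ones. It stepped down across the populations without overlap (-1.73 ± 0.42, adjusted p = 0.0287, and -3.15 ± 0.42, adjusted p = 0.000473). Grem1 and Chrd, which encode the antagonists gremlin and chordin, went up instead. Grem1 had 193, 73.5 and 199 in GFP-only, 1031, 1062 and 1139 in double-positive and 1109.8, 1136 and 929.6 in RFP-only libraries (2.92 ± 0.36 and 2.89 ± 0.36, adjusted p = 0.00124 and 0.000323). The double-positive call of Nog was lost without double-positive litter 2 or GFP-only litter 1 (adjusted p = 0.0875 and 0.0728).

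Chrd was higher by 2.36 ± 0.48 in double-positive (adjusted p = 0.0131) and 3.12 ± 0.48 in RFP-only than GFP-only cells (adjusted p = 0.00108). Smoc1, a secreted BMP antagonist gene, was higher in double-positive cells than in both others (2.40 ± 0.39, adjusted p = 0.00462, and 1.80 ± 0.39, adjusted p = 0.0353). Nbl1, another antagonist gene, was higher in RFP-only than GFP-only cells (2.88 ± 0.32, adjusted p = 0.000142) and lower in double-positive than RFP-only cells (-1.85 ± 0.32, adjusted p = 0.0103). Bmper and Crim1, whose products bind BMPs, were lower in RFP-only than GFP-only cells (-1.86 ± 0.30 and -1.35 ± 0.31, adjusted p = 0.00136 and 0.0111). Crim1 was also lower in double-positive cells (-1.22 ± 0.31, adjusted p = 0.0361). That call was lost on leaving out any 1 of 7 libraries, all but double-positive litter 5 and RFP-only litter 5 (adjusted p up to 0.131). Without GFP-only litter 5 the value was -1.21 (adjusted p = 0.0547). The double-positive call of Chrd was lost without double-positive litter 2 (adjusted p = 0.0601) and that of Crim1 in RFP-only cells without RFP-only litter 1 (0.054). Against RFP-only cells, Smoc1 lost its call without any 1 double-positive library or RFP-only litter 1 or 2 (adjusted p 0.0744 to 0.147), and Nbl1 without the libraries of litters 1 or 5 in double-positive or 2 or 5 in RFP-only cells (0.0519 to 0.057).

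Of 6 tested genes for other BMP and GDF ligands, Gdf5, the joint interzone ligand, was at 5235 to 16771 in double-positive libraries, 793 to 1385 in GFP-only and 130.2 to 668 in RFP-only libraries. It was higher in double-positive cells than in both others (3.11 ± 0.58, adjusted p = 0.00908, and 4.60 ± 0.58, adjusted p = 0.00159). Gdf6, a close relative, was higher in both Creb5-reporter populations, at 64.3 to 301 against 2.71 to 13.2 in GFP-only libraries (4.31 ± 0.69 and 4.83 ± 0.69, adjusted p = 0.00404 and 0.000675). Bmp8a was at 197 to 832 in GFP-only and 3.4 to 35.1 in the other libraries, and reads could be split with its near-identical neighbour Bmp8b. Mstn, the muscle growth inhibitor gene, was higher in RFP-only than GFP-only cells (5.55 ± 1.15, adjusted p = 0.00628), where skeletal muscle markers were also higher. Bmp1, which encodes a protease that cleaves chordin and procollagens rather than a ligand, was higher in RFP-only than GFP-only cells (1.12 ± 0.32, adjusted p = 0.031). Without GFP-only litter 5 it was 0.68 (adjusted p = 0.0155), and the call was lost without any 1 RFP-only library (0.074 to 0.101).

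Of 6 tested genes for other receptors and co-receptors 1 was called in each comparison with GFP-only cells, and of 12 Smad regulators 2. Both are 16.7%, beside 8.29% of all tested genes for double-positive and 20.3% for RFP-only cells. They were Rgmb, a BMP co-receptor gene, and Ski and Nedd4l, which encode negative regulators of Smad signaling. All were higher than GFP-only cells in double-positive (1.09 ± 0.23, 1.25 ± 0.29 and 1.49 ± 0.32, adjusted p = 0.0151, 0.0246 and 0.0181) and in RFP-only cells (1.78 ± 0.23, 1.24 ± 0.29 and 1.80 ± 0.32, adjusted p = 0.000373, 0.0118 and 0.00287). Their double-positive calls were lost without double-positive litter 1 or 5 for Rgmb and of litter 1 or 2 for Ski and Nedd4l (adjusted p 0.0551 to 0.107), and the RFP-only call of Ski without RFP-only litter 5 (0.0564). Of 13 genes for TGF-beta storage and activation, 1 was higher in double-positive and 4 in RFP-only than GFP-only cells (7.69% and 30.8%). Higher calls made up 5.27% and 11.8% of all tested genes there. Double-positive cells exceeded RFP-only cells in 1 of the 13 (7.69%), beside 1.8% of all tested genes. None was called lower in any of the 3 comparisons, but only 3.02%, 8.48% and 1.05% of all tested genes were. With 13 genes that absence says little. Fbn2, which encodes the fibrillin of embryonic microfibrils that LTBPs bind, was higher in double-positive cells (1.85 ± 0.39, adjusted p = 0.016, and 0.0779 without double-positive litter 2), and Dcn, Fbn1 and Lrrc32 were among 4 higher in RFP-only than GFP-only cells (4.57 ± 0.74, 2.23 ± 0.49 and 3.08 ± 0.68, adjusted p = 0.00142, 0.00871 and 0.00871). Fmod, which encodes the matrix proteoglycan fibromodulin, was higher in double-positive than RFP-only cells (2.20 ± 0.37, adjusted p = 0.00987, and 0.0553 without double-positive litter 5). Dcn is also a marker of loose connective tissue, whose 8 markers were all higher in RFP-only cells.

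Of 12 TGF-beta response genes 2 were called in each comparison with GFP-only cells (16.7%), beside 8.29% of all tested genes for double-positive and 20.3% for RFP-only cells. Postn, which encodes the matrix protein periostin, was higher in double-positive (2.52 ± 0.59, adjusted p = 0.024) and RFP-only cells (a fold of 16.0, adjusted p = 0.000834) than GFP-only cells. The double-positive call of Postn was lost without GFP-only litter 1 or 5 or double-positive litter 2 or 5 (adjusted p 0.0611 to 0.106). Tgfbi, which encodes a matrix protein that TGF-beta induces, was higher in double-positive cells than in both others (0.89 ± 0.24, adjusted p = 0.0415, and 1.47 ± 0.24, adjusted p = 0.00701), the former lost on leaving out any 1 of 8 libraries, all but GFP-only litter 5 (adjusted p up to 0.153). Ccn2, which encodes a matrix-associated growth regulator of cartilage, was lower in RFP-only than GFP-only cells (-2.65 ± 0.57, adjusted p = 0.00727). Of 12 BMP response genes, which include the Id genes and Bambi, only Bambi and Msx1 were called (8.33% in double-positive and 16.7% in RFP-only cells, against the same background). Both were lower in RFP-only cells, and Bambi also in double-positive cells, with the homeobox gene Msx1 at 1773, 719.9 and 1163 in GFP-only and 219, 77 and 210.0 in RFP-only libraries (-2.89 ± 0.52, adjusted p = 0.00278).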

How the data were processed

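Bulk RNA-seq of polyA RNA from 9 sorted libraries was used. The values are normalized counts (signal) that the authors deposited, gene counts divided by a size factor per library. Per the submitters' processing notes the tools were STAR, Salmon, FastQC and DESeq2 and the build mm10, with no version or role given. The sources used here do not say how reads were counted or whether by strand. Dividing by the smallest step in each library gave whole reads for 100% of values within 0.001 read, with totals of 25199258 to 47079305. Of 54532 identifiers, 54495 matched GENCODE M21, and 23956 genes had no read. Every pair of libraries of 1 population differed by more than counting error, with a chi-square over its degrees of freedom of 46.6 or more.

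Values were tested with limma 3.58.1 in R 4.3.3 on log2(normalized count + 1), with all 9 libraries in 1 fit, no litter term, a mean of at least 10 normalized counts (17764 genes) and Benjamini-Hochberg adjustment, calling at 0.05. Fold changes on that scale understate low genes. The libraries of a population come from separate litters isolated on separate dates, per the labels, so p-values measure the spread between litters and dates together. Litter pairs the libraries by label, since same-numbered libraries come from 1 litter. Deviations from the population means correlated at -0.04 to 0.15 in the 9 same-litter pairs and at -0.15 to 0.09 in the 18 other pairs. The alternatives were pseudocount 5, a mean of 50 or no filter, TMM or quantile scaling, litter as a block, fits of 2 populations, the count tests of DESeq2 1.42.0 and edgeR 4.0.16 on those reads, and leaving out each library. On the recovered reads edgeR called 1236 genes for double-positive and 3191 for RFP-only cells, each against GFP-only cells, and 411 between the former, beside 1472, 3601 and 506 by limma. A correction for transcript length and a litter F-test were added after seeing the data. The limma script was tested on simulated counts.

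The genes and lists were chosen with earlier results of these data known. Genes called in a comparison are given with all 9 values, as are Eng and the Id genes, and the rest by range. Other pathway genes are given by up to 3 called genes of a list for each comparison and direction, those with the smallest adjusted p. Levels between genes are per kilobase of union exon length. Of the 45 genes, 16 share exon bases with another gene. Promoter windows are RefSeq sequence of GRCm38.p6.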

Additional observations from a re-analysis of the deposited data

How the results depend on the processing

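Of the 35 called differences of single genes of the set, 18 were called under all 19 alternatives. Litter as a replicate block gave 11 called genes of the 45 for double-positive and 23 for RFP-only cells, each against GFP-only cells, 4 for double-positive against RFP-only cells, 19 by the F-test across populations and 0 on 1 side of both others in double-positive cells. It added Eng in double-positive cells and Acvr2a and Id2 in RFP-only cells, both against GFP-only cells, and changed no other call of the set in these comparisons. Over all genes the block gave 1616, 3673 and 558 calls, in that order. Fits of only 2 populations called 697 genes for double-positive against GFP-only cells and 1008 for double-positive against RFP-only cells, and DESeq2 called 2780 and 1152, beside 1472 and 506. In double-positive against RFP-only cells 7 genes of the set were called in the fit of 2 populations, beside 4. The number higher in double-positive cells than in both others was 1 with quantile normalization (Gdf10), and 1 in fits of 2 populations and with a correction for transcript length (Ltbp3), beside 0. Twsg1 turned from -0.28 to 0.037 in RFP-only against GFP-only cells with quantile normalization, called under neither. Leaving out 1 library gave 637 to 1553, 2190 to 3716 and 217 to 1050 called genes, in the same order. Of the set, it gave 6 to 12, 11 to 23 and 2 to 7 called genes, 12 to 20 by the F-test and 0 to 1 on 1 side of both others. Leaving out a library of the population outside a comparison cannot move its fold change. It changes the estimate of spread that the 3 populations share in 1 fit, and so the adjusted p. Bmp6 in double-positive against GFP-only cells stayed at -1.50 without each RFP-only library, with an adjusted p of 0.0536 to 0.0658. The cause of the other changes was not tested. With 3 libraries per population, differences smaller than the spread between litters were not detectable. The least abundant gene of the set had a mean of 124 normalized counts.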
